A study of Mus musculus with 27 samples.

Results

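Whole lungs of 10-day-old C57BL/6 mice labelled WT or Het were compared by bulk RNA sequencing, with the Het lungs set against the WT lungs across all genes and with the spread between libraries described beside it. The lung libraries were taken by their labels: 3 labelled WT and 3 labelled Het, which is 6 of the 27 libraries of the series. The other 21 libraries were mouse embryonic fibroblasts. Het stands for an altered copy of Foxm1 beside a normal one, as far as the series title and labels allow that reading. Nothing in the labels describes the altered part of Foxm1 or states whether the change is present in every cell, whether a library is 1 animal or several, or what sex the animals were. P-values therefore measure the spread between these libraries only. The title of the series links a shortage of FoxM1 to signalling through Ect2, RhoA and mDia1 and to cancer, and the lungs are the series' only tissue.

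FoxM1 is a forkhead transcription factor of dividing cells. Its RNA and protein rise as cells pass from S phase to mitosis, and together with B-Myb and the MuvB complex it switches on genes of the G2/M phase, which build the spindle, drive entry into mitosis and carry out cytokinesis. Ect2 is a guanine nucleotide exchange factor that loads the small GTPase RhoA during cytokinesis, and mDia1, the product of Diap1, is a formin that RhoA opens to nucleate actin filaments. At this age the mouse lung is forming alveoli: septa grow out from the sac walls, myofibroblasts lay down elastin, the capillary bed is remodelled, and epithelial, endothelial and mesenchymal cells still divide. A whole lung mixes all of these cell types, so fewer cells of a type and less RNA per cell cannot be told apart in these data.

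The labelled tissue was borne out by lung genes in all 6 libraries. Levels are given as counts per 1000000 (CPM), scaled between libraries by the trimmed mean of M values (TMM). Sftpc, the surfactant protein of alveolar type 2 cells, stood at 12037 to 23246 CPM, Ager of type 1 cells at 1993 to 2843, Scgb1a1 of airway club cells at 9446 to 30661, and Eln, which encodes elastin, at 13721 to 17854. The thymus markers Ptcra and Rag1 were at 0 to 0.163 and at 0.453 to 2.10 CPM, and the neutrophil precursor gene Elane at 0 to 0.0604. The neutrophil genes S100a8 and S100a9 stood at 11.2 to 21.3 and at 16.9 to 32.5 CPM. Cardiac muscle genes were present in all 6 libraries, with Myh6 at 64.3 to 191 CPM and Actc1 at 119.6 to 233. Total counts ran from 29730693 to 50326730 per library, with 17749 to 18168 genes detected. No pair of libraries within a group agreed within sampling noise (chi-square per degree of freedom 48.7 to 206), so each was counted as 1 sample.

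No gene passed the test between Het and WT lungs. Of 15933 genes tested with edgeR's quasi-likelihood F test, two-sided, 0 (0%) had a Benjamini-Hochberg adjusted p under 0.05, and the smallest adjusted p was 1. At an unadjusted p under 0.05, 47 genes were higher in Het (0.295%) and 67 lower (0.421%). Together they were 0.715% of genes, fewer than the share of 0.05 that a calibrated test gives where no gene differs. The lack of calls therefore does not show that the groups are alike. DESeq2, run on the same counts, called 1 gene of 19375 (0.00516%), D430041D05Rik, which was lower in Het. The genes' log2 differences were small: the median was 0.0069, with 8287 genes above 0 (52.0%) and 7646 below it (48.0%), and the median size without regard to sign was 0.092. The median 95% confidence interval, which is not adjusted for the number of genes, reached 0.45 to each side on the log2 scale. Larger differences also went uncalled by edgeR: D430041D05Rik, the gene of lowest p, had a log2 difference of -1.57. The biological coefficient of variation, the spread between libraries beyond counting error, was 0.255.

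The spread was unequal between the libraries. Over the genes tested, the median SD of log2 CPM was 0.156 among the WT libraries and 0.268 among the Het libraries, and the Het SD was the larger one for 72.1% of genes. The coefficient of variation was 0.217 within WT and 0.285 within Het. It was 0.192 with the Het 3 library left out and 0.137 with both WT 1 and Het 3 left out. In limma's voom fit, which weights libraries by how closely they follow the others, WT 3 had a weight of 2.98, Het 2 of 2.60, WT 2 of 1.64, Het 1 of 0.975, WT 1 of 0.561 and Het 3 of 0.144. Without Het 3, 2055 genes had an unadjusted p under 0.05 in edgeR's test (12.9%), and with neither WT 1 nor Het 3 1793 did (11.3%), against 114 with all 6 libraries. In both cases 0 passed adjustment, with smallest adjusted p-values of 0.348 and 0.291.

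Libraries of the same genotype were not nearer to each other than to those of the other. Over the 500 most variable genes, the root mean square log2 distance averaged 2.05 between a WT and a Het library and 2.31 between libraries of the same group. The difference was -0.26, with an exact permutation p of 0.2 over the 10 ways to split 6 libraries into 3 and 3, where 0.1 is the smallest p this design allows. The nearest pair was WT 3 with Het 1, at 1.27, and the farthest was WT 1 with WT 2, at 3.56. The first principal component of all 15933 genes held 49.0% of the variance and placed WT 1 at 50.05 and Het 3 at 44.2, against -11.1 to -38.7 for the other 4 libraries. The second held 23.98% and set these 2 libraries furthest apart, with WT 1 lowest at -32.7 and Het 3 highest at 32.6.

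**Figure D1:**
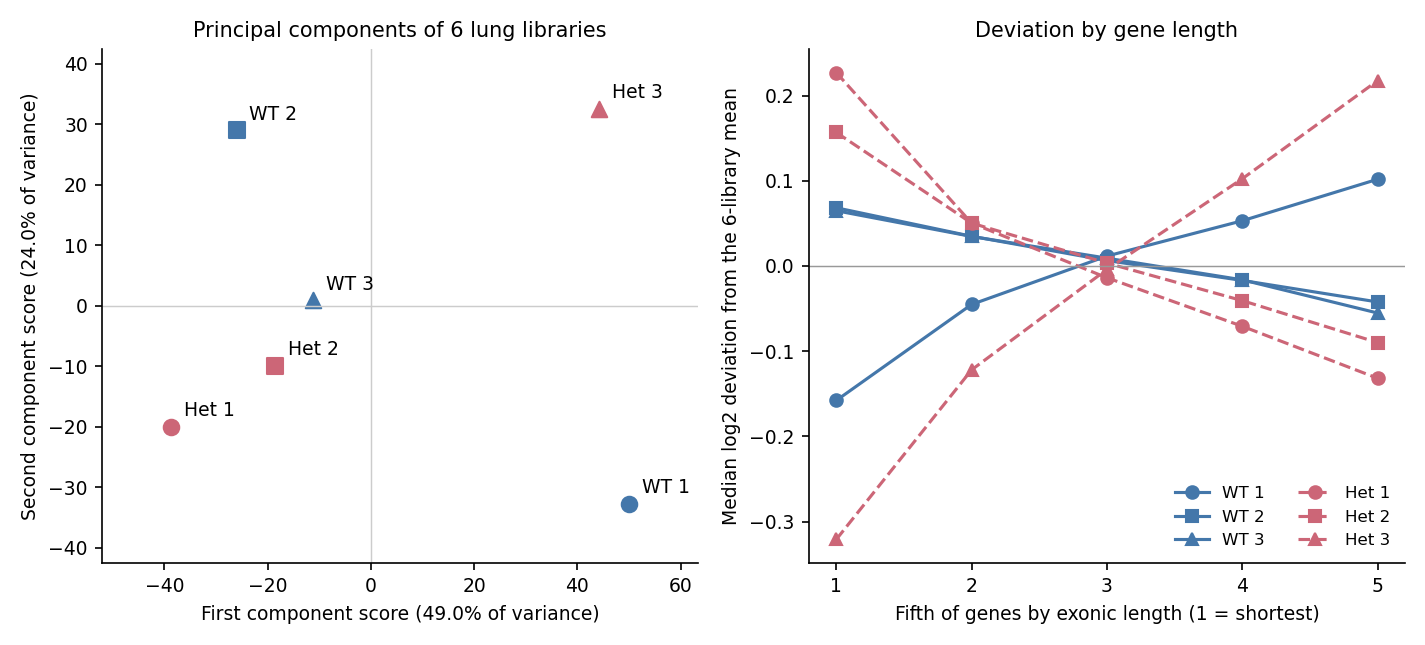
Left, scores of the 6 lung libraries on the first and second principal components of the 15933 genes tested (blue, WT; red, Het; 1 point per library), with WT 1 and Het 3 on the right and the other 4 on the left. Right, median log2 deviation of each library from the mean of the 6 libraries, in 5 groups of genes ordered by exonic length: WT 1 and Het 3 rise with length and the other 4 fall.

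WT 1 and Het 3 also differed from the others in how their counts moved with gene length. Each gene's log2 deviation from the 6-library mean had a correlation with log2 exonic length of 0.246 in WT 1 and 0.401 in Het 3, against -0.153 in WT 2, -0.157 in WT 3, -0.321 in Het 1 and -0.259 in Het 2. These are correlations across 15804 genes within a library, which are not independent replicates, and they are given as a description. With genes split into 5 groups by length, the median deviation in the group of shortest genes was -0.158 in WT 1 and -0.321 in Het 3. It was 0.068 in WT 2, 0.065 in WT 3, 0.227 in Het 1 and 0.157 in Het 2. The correlations with GC content were between -0.073 and 0.072. With 1 such library in each group, the Het minus WT difference hardly moved with length: its median was 0.040 in the group of shortest genes and between -0.0093 and 0.016 in the other 4 groups. Rn45s, the precursor of ribosomal RNA, took 4.82% and 5.09% of counts in WT 1 and WT 2 and 2.81% in Het 2, against 0.905% to 0.951% in WT 3, Het 1 and Het 3. The part of length and of ribosomal RNA in the gene results was not tested beyond the alternatives given in the closing section.

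The 10 genes with the largest spread within groups were Xist, 4 Y-linked genes, Acta1 of muscle, Krt13, Krt6a and Cnfn of squamous epithelium, and 2300002M23Rik. Krt13, a keratin of squamous epithelium such as the oesophageal lining, stood at 0.0733, 904 and 185 CPM in the WT libraries and at 152, 162 and 58.1 in the Het libraries. WT 1 was almost without it and WT 2 was highest. Krt6a was likewise lowest in WT 1 and highest in WT 2, with 0, 145 and 28.2 CPM in WT and 19.4, 29.2 and 10.4 in Het. Over the squamous list, 6 of 19 members in the table had no count in WT 1 and 1 had none in each of the other libraries, and the list summed to 31.4 CPM in WT 1, 2455 in WT 2, 549 in WT 3 and 211 to 506 in the Het libraries. All 18 tested members lay below 0 in the Het minus WT difference, with a median log2 of -1.17, and in all 18 the groups overlapped. The median was 0.43 without WT 2 and -1.72 without WT 1.

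Skeletal muscle genes set WT 1 apart in the same way. Acta1, the skeletal actin, stood at 0.318, 275 and 210 CPM in WT and at 201, 92.9 and 104 in Het, and Myh1, a fast myosin heavy chain, at 0.0977 CPM in WT 1 against 13.9 to 91.0 elsewhere. Summed over 24 members, muscle genes came to 35.9 CPM in WT 1, 1264 in WT 2, 953 in WT 3, 1049 in Het 1, 429 in Het 2 and 432 in Het 3. Myh2, another fast myosin, was at 33.7 CPM in Het 1 and at 0 to 1.03 in the other 5 libraries. Fat genes set Het 3 apart: Ucp1, the uncoupling protein of brown fat, was at 25.8 CPM there and at 0.0700 to 0.932 in the other 5 libraries, and Cidea, a lipid droplet protein, was at 10.4 against 0.562 to 1.72. The adipocyte list had a median log2 difference of 1.03 over 15 genes and of 0.022 without Het 3. None of the 23 muscle or 15 fat genes tested had groups that did not overlap.

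The libraries also differed in sex-linked RNA. Xist, the RNA that coats the inactive X chromosome, stood at 779, 3.23 and 624 CPM in WT and at 808, 3.22 and 1.82 in Het. Y-linked genes summed to 0.147, 145 and 0.570 CPM in WT and to 0.0666, 157 and 184 in Het. By these levels WT 1, WT 3 and Het 1 had high Xist and almost no Y-linked RNA, and WT 2, Het 2 and Het 3 the reverse. The levels were thus 1 against 2 in opposite directions in the groups. Entering the Y-linked level as a covariate left 0 genes called.

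Foxm1 itself did not separate the groups. It stood at 20.4, 18.3 and 18.8 CPM in the WT libraries and at 17.2, 17.9 and 20.2 in the Het libraries, with means of 19.2 ± 1.08 and 18.4 ± 1.55 (SD, n = 3 each). The 2 groups overlapped, with Het 3 just below the highest WT library. The log2 difference was -0.058 (SE 0.12, 95% interval -0.35 to 0.23, adjusted p = 1 by edgeR), and it stayed between -0.12 and -0.0033 over the 18 alternatives. The interval includes no change and does not include a difference of -1, the size that losing the RNA of 1 of 2 copies would have. Counts over the whole gene (chr6:128362967-128376146, + strand) check the label only if the altered copy yields fewer counted reads. The last exon of Foxm1 overlaps an exon of 4933413G19Rik, so without strand some reads cannot be told apart. In fibroblasts Foxm1 stood at 145, 147 and 149 CPM in WT and 126, 131 and 130 in Het of experiment 2, a log2 difference of -0.18 with an adjusted p of 0.249. In experiment 1 it went the other way, with 134, 140.1 and 136 CPM in WT and 139, 149 and 152 in the libraries labelled KO, a log2 difference of 0.10 with an adjusted p of 0.565. Foxm1 passed edgeR's threshold in none of these 3 comparisons.

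The other genes of the series title gave no call in lung either. Ect2 stood at 14.9, 14.02 and 17.3 CPM in WT and at 8.86, 14.3 and 14.6 in Het. Het 1 was the lowest library, and the other Het libraries lay within the WT range. The log2 difference was -0.29 (SE 0.22, adjusted p = 1 by edgeR). Rhoa stood at 600.4, 499 and 536 CPM in WT and at 439, 511 and 619 in Het, a log2 difference of -0.061, and its exons overlap those of Tcta. Diap1 stood at 78.4, 61.4 and 62.7 CPM in WT and at 35.0, 57.7 and 112.5 in Het, a log2 difference of 0.021 (SE 0.38). Its highest and its lowest library were both Het. Without Het 3 the Diap1 difference was -0.54, with an adjusted p of 0.394. Over 33 genes for Ect2, RhoA and the actin cortex, the median log2 difference was -0.025, with 0 genes called. The groups did not overlap in 0 of them in the higher direction and in 2 in the lower, beside 1.96% and 2.28% of all genes. That median was -0.17 without Het 3 and 0.086 without WT 1.

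Non-overlap, with all 3 Het libraries above or all below all 3 WT libraries, occurred for 312 genes in the higher direction (1.96%) and for 363 in the lower direction (2.28%). Gene lists are described below by their number of such genes, their median and their number on each side of 0, beside these shares. The lists were drawn up with earlier results of these data known, so the counts are descriptions and not tests.

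G2/M genes driven by FoxM1 and B-Myb lay mostly below WT in the Het lungs by small amounts, and none passed the test. All 44 listed genes were tested and 0 were called by edgeR. Their median log2 difference was -0.20 (0.0069 over all genes), 40 lay below 0 and 4 above, and in 7 the groups did not overlap, all lower, beside 2.28% of all genes. At an unadjusted p under 0.05, 4 were lower, namely Cenpf, Ccnb1, Aspm and Kif20b, beside 0.421% of all genes. Cenpf, a kinetochore protein, stood at 19.5, 23.1 and 27.95 CPM in WT and at 15.3, 20.6 and 14.2 in Het, a log2 difference of -0.49 (SE 0.20, adjusted p = 1 by edgeR). Its groups overlapped, since Het 2 lay above WT 1. Ccnb1, the cyclin B1 that drives entry into mitosis, stood at 15.3, 16.3 and 16.6 CPM in WT and at 12.2, 14.3 and 10.2 in Het, a log2 difference of -0.39 (SE 0.16). Here every Het library lay below every WT library.

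Aspm, which focuses spindle poles, stood at 13.7, 13.4 and 15.5 CPM in WT and at 10.1, 12.6 and 10.1 in Het. Kif20b, a mitotic kinesin, stood at 11.2, 11.7 and 13.9 CPM in WT and at 7.89, 9.85 and 10.1 in Het. The remaining non-overlapping members were the kinesins Kif14, Kif20a and Kif23 and the spindle protein Dlgap5, with log2 differences of -0.45, -0.41, -0.31 and -0.44. Kif23 pairs with Racgap1 in the complex that recruits Ect2 to the central spindle, and it stood at 20.0, 24.4 and 22.5 CPM in WT and at 16.7, 19.4 and 17.9 in Het. Members with small differences included Mki67, the proliferation marker Ki-67, with -0.22, Plk1, the polo-like kinase, with -0.16, Cdk1, the mitotic kinase, with -0.15, and Top2a, a topoisomerase of dividing cells, with -0.12. The 4 above 0 were Pttg1, Cks2, Psrc1 and Bub1b, and Pttg1, the securin, was furthest at 0.33.

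**Figure D2:**
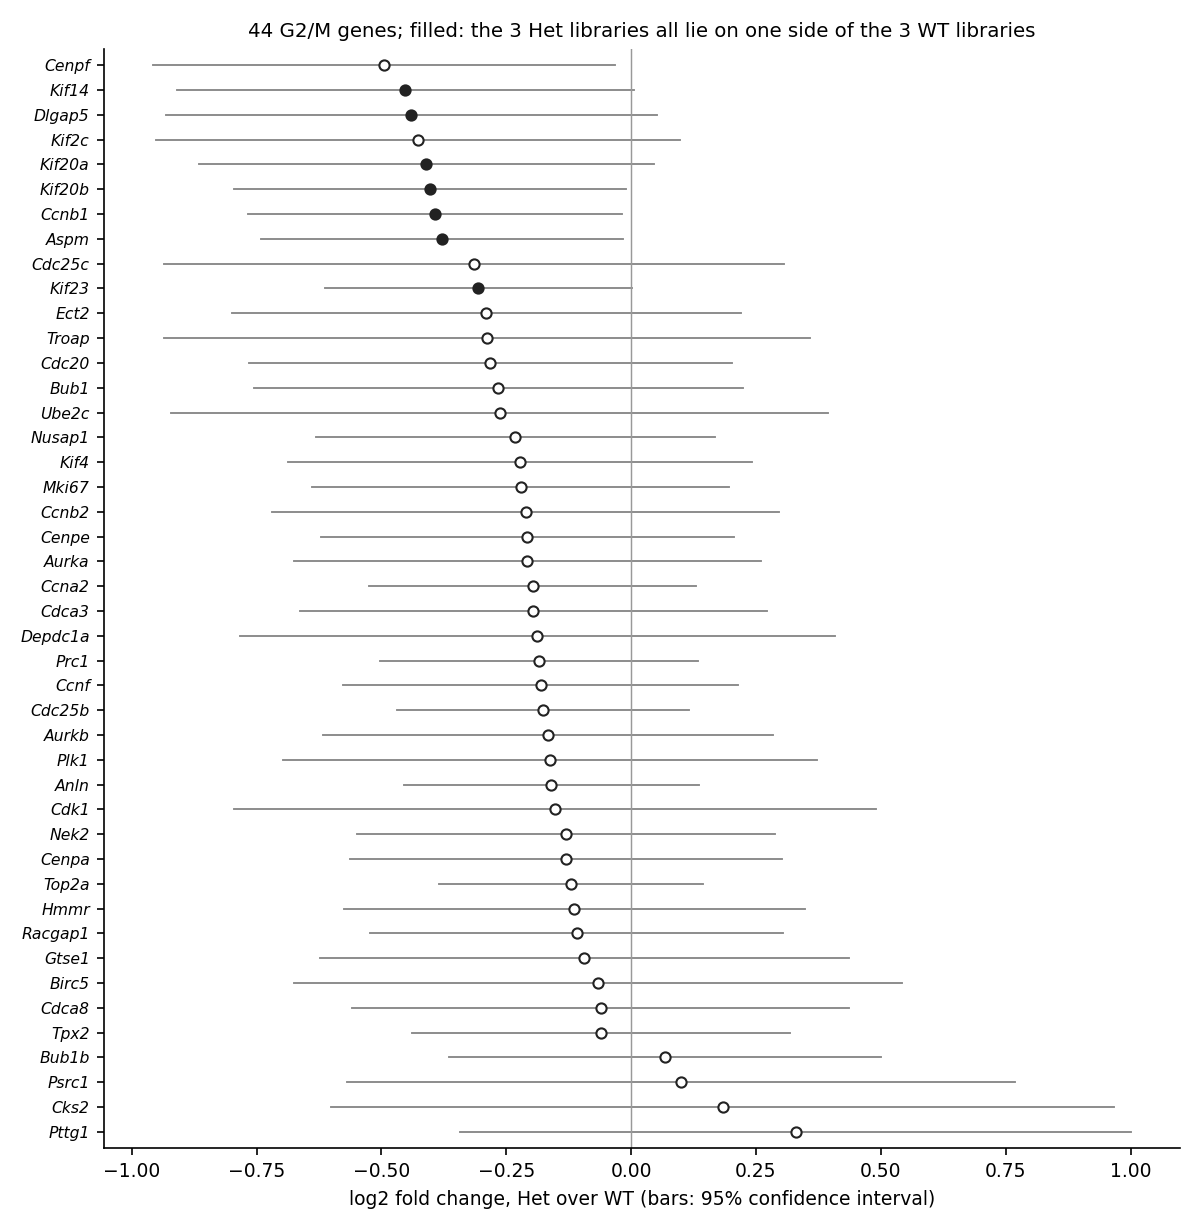
log2 difference of Het over WT for each of the 44 G2/M genes, ordered by size, with bars for the 95% confidence interval. Filled points mark the 7 genes whose groups do not overlap, and 40 points lie below 0, most with intervals that cross it.

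The size of this list's median rested partly on single libraries. The mean log2 CPM of the 44 genes was 3.85 to 4.12 in the WT libraries and 3.74, 4.02 and 3.56 in Het, so that Het 2 lay within the WT range and Het 3 lowest. Without Het 3 the median was -0.10, with 32 genes below 0 and 8 non-overlapping and lower, where 17.1% of all genes do so with 3 libraries against 2. With neither WT 1 nor Het 3 it was -0.13, with 37 below 0 and 16 non-overlapping and lower beside 22.3% of all genes. It was -0.33 without Het 2. The G1/S genes driven by E2F, which act in DNA replication, had a median of -0.055 over 40 genes, and 0.0047 without Het 3. With all 6 libraries 31 lay below 0 and 2 were non-overlapping and lower, beside 2.28% of all genes. Cdc45, a subunit of the replicative helicase, stood at 9.63, 8.28 and 8.58 CPM in WT and at 7.03, 7.66 and 6.07 in Het. The 14 genes of FoxM1, B-Myb and the DREAM complex, which represses cell cycle genes in resting cells, had a median of -0.016 (0.018 without WT 1) and 0 non-overlapping members.

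The promoters of the 4 G2/M genes of lowest p are shown so that the presence or absence of 3 motifs known from G2/M promoters can be read off them. Each comes from the 250 bases before the transcription start in the RefSeq promoter table (GRCm38.p6), 5′ to 3′ on the gene's own strand. Bases from the first annotated exon of the gene up to the start were left out. The Ccnb1 stretch is therefore only 166 bases long and lacks the bases nearest the start. Capitals mark CCAAT (the NF-Y motif), TGTTTA (a forkhead motif) and TTTGAA (the cell cycle homology region, bound by MuvB), each on either strand.
Cenpf (chr1:189688087-189688336, - strand): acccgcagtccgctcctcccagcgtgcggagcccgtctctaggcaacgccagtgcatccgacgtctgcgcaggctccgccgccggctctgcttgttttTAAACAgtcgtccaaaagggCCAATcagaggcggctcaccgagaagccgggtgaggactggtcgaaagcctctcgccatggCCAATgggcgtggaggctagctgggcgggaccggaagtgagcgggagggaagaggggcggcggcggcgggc
Ccnb1 (chr13:100786571-100786736, - strand): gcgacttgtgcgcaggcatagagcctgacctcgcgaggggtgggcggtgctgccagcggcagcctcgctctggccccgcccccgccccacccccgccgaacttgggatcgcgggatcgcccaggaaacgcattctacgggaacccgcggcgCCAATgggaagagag
Aspm (chr1:139454523-139454771, + strand): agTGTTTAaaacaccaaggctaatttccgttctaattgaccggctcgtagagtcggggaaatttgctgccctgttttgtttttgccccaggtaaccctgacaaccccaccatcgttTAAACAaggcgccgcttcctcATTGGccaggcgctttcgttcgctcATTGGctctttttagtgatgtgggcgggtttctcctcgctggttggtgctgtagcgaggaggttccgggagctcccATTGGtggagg
Kif20b (chr19:34922108-34922357, + strand): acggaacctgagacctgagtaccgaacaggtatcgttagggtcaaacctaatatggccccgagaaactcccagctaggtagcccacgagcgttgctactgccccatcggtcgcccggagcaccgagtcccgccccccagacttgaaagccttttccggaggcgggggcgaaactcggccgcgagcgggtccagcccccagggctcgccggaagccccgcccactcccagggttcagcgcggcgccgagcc

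The printed stretch of Cenpf holds 2 CCAAT matches and 1 forkhead match, that of Aspm 3 and 2, that of Ccnb1 1 CCAAT match, and that of Kif20b none. None of the 4 printed stretches holds TTTGAA, and for Ccnb1 the bases left out near the start are not covered by this. Of the 44 G2/M genes, 38 had an entry in the table, and in the 250 bases before the start 84.2% of these held CCAAT, 28.9% TTTGAA and 15.8% TGTTTA. Among the 11816 tested genes with an entry the shares were 35.5%, 10.9% and 7.96% over the same length. The 11 members with TTTGAA had a median log2 difference of -0.22 and the 27 without it -0.18. With CCAAT it was -0.19 in 32 genes and -0.20 in the 6 without. With the forkhead motif it was -0.33 in 6 genes and -0.18 in the 32 without. These differences between members with and without a motif were not tested. A match of letters is a description and does not show that a factor was bound.

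Immediate early genes, which cells switch on within minutes of a stimulus and also during dissection, had a median log2 difference of -0.19 over 26 genes, with 20 below 0. Of these, 5 had groups that did not overlap, all lower, beside 2.28% of all genes: Atf3, Klf6, Nr4a1, Jun and Klf4. Nr4a1, an orphan nuclear receptor, stood at 92.6, 40.4 and 36.1 CPM in WT and at 35.5, 29.97 and 23.8 in Het, a log2 difference of -0.92 (SE 0.37, adjusted p = 1 by edgeR). WT 1 was the highest library here and in Per1, a clock gene that stress also induces, which stood at 175 CPM in WT 1 and at 45.6 to 60.2 in the other 5 libraries. Jun, a subunit of AP-1, stood at 241, 218 and 209.8 CPM in WT and at 185, 189.9 and 180.0 in Het. At an unadjusted p under 0.05, 5 members were lower, beside 0.421% of all genes. Without WT 1 none was, beside 160 of 16000 genes, while the list's median was -0.13, 20 members still lay below 0 and 5 were non-overlapping and lower, beside 6.13% of all genes. With neither WT 1 nor Het 3 it was -0.060, with 15 genes below 0.

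Neutrophil genes lay mostly above WT in the Het lungs, at low levels, and none passed the test. Of 28 listed genes 21 were tested and 0 were called by edgeR, with a median log2 difference of 0.40, 17 above 0 and 4 below. The groups did not overlap in 5, all higher, beside 1.96% of all genes: Ngp, S100a9, S100a8, Camp and BC100530. S100a9, a subunit of calprotectin, stood at 16.9, 17.5 and 25.2 CPM in WT and at 30.9, 27.1 and 32.5 in Het, a log2 difference of 0.60 (SE 0.18, adjusted p = 1 by edgeR). S100a8, the other subunit, stood at 11.8, 11.2 and 14.6 CPM in WT and at 18.3, 15.4 and 21.3 in Het. The lowest Het library was close above the highest WT library in each. Ngp, a granule protein, stood at 2.57, 2.36 and 2.19 CPM in WT and at 3.93, 3.41 and 4.25 in Het, and Camp, which encodes an antimicrobial peptide, at 0.665 to 1.17 in WT and 1.49 to 2.198 in Het.

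In the other tested members of the list the groups overlapped, whether the difference lay above or below 0. Ltf, the granule protein lactoferrin, which airway glands also make, stood at 7.501, 258 and 64.5 CPM in WT and at 52.0, 29.2 and 26.3 in Het, a log2 difference of -1.62. Csf3r and Cxcr2, receptors on mature neutrophils, had differences of 0.11 and 0.16, and the proteases Mmp8 and Mmp9 of 0.40 and 0.27. The list's median was 0.17 without Het 3, with 12 of 21 genes above 0, and 0.25 with neither WT 1 nor Het 3. The summed level of the 26 members in the table was 238, 403 and 266 CPM in WT and 262, 203 and 329 in Het, so the groups overlapped in the sum.

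**Figure D3:**
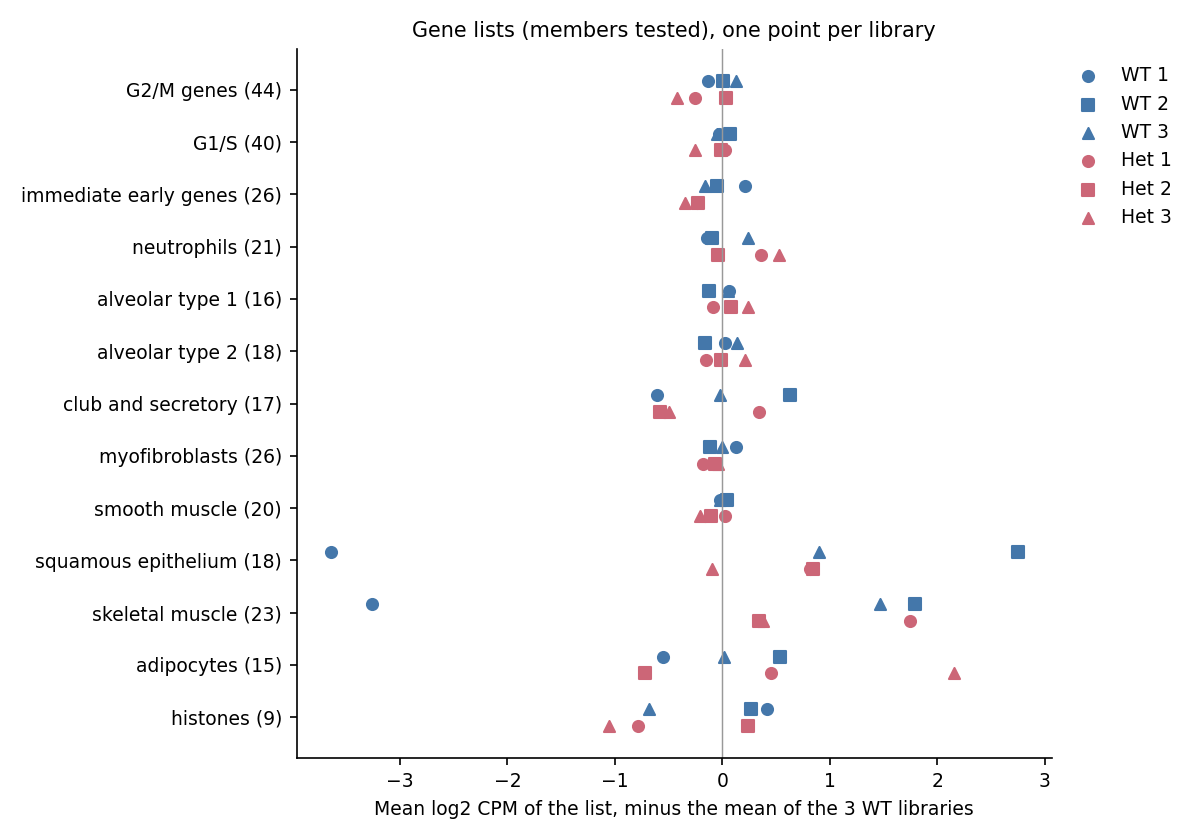
Mean log2 CPM of each gene list in each library, less the mean of the 3 WT libraries (blue, WT; red, Het; the number of tested members is in brackets). The squamous, skeletal muscle and adipocyte lists span the widest range, and WT and Het libraries overlap in all lists shown except the immediate early genes.

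Genes of the alveolar epithelium, endothelium and mesenchyme stayed close to 0. The type 1 cell list had a median log2 difference of 0.13 over 16 genes, with 15 above 0. Without Het 3 the median was 0.10 and 9 of 16 lay above 0. With all 6 libraries 1 member was non-overlapping and higher, beside 1.96% of all genes. It was Vegfa, which encodes the main endothelial growth factor of the lung. Vegfa stood at 583 to 598 CPM in WT and at 603 to 711 in Het. The type 2 cell list had a median of 0.063 over 18 genes, with 0 non-overlapping, and Sftpc had a log2 difference of 0.14 with an SE of 0.26. Capillary endothelium stood at 0.090 over 24 genes, with 17 above 0 and 7 below. Its member of lowest p, Lyve1, the hyaluronan receptor known from lymphatic vessels, went against the median. Lyve1 stood at 207, 131 and 142 CPM in WT and at 107, 98.7 and 134 in Het, a log2 difference of -0.50 (SE 0.21). The lymphatic list had a median of 0.15 over 6 genes, with 5 above 0 and 1 below, and of -0.018 without Het 3. Alveolar fibroblasts stood at -0.016 over 20 genes.

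The myofibroblast and elastic fibre list had a median of -0.040 over 26 genes. Fgf18 and Ltbp1 were non-overlapping and lower, 2 genes, beside 2.28% of all genes. Fgf18, a growth factor of alveolar septation, stood at 43.2, 29.7 and 30.02 CPM in WT and at 26.3, 28.3 and 22.4 in Het, with WT 1 apart from the rest, and Eln had a log2 difference near 0 with means of 15939 and 15903 CPM. Smooth muscle cells and pericytes stood at -0.090 over 20 genes. Here 3 were non-overlapping and lower, Lmod1, Kcnj8 and Trpc6, again beside 2.28% of all genes. Lmod1, leiomodin 1 of smooth muscle, stood at 19.03, 24.1 and 27.1 CPM in WT and at 18.7, 14.7 and 17.5 in Het, and the highest Het library nearly reached the lowest WT library. The 44 genes of alveologenesis signalling had a median of 0.025, with 1 non-overlapping in each direction, beside 1.96% of all genes higher and 2.28% lower. Ribosomal protein genes stood at 0.073 over 39 genes and nuclear genes of oxidative phosphorylation at 0.084 over 35, and without Het 3 these medians were 0.26 and 0.30. Leaving out 1 library turned the sign of the median for the type 2 cells (-0.039 without WT 2), the alveolar fibroblasts (0.031 without WT 1), alveologenesis signalling (-0.073 without Het 3), the ribosomal proteins (-0.036 without Het 2) and oxidative phosphorylation (-0.030 without Het 1).

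Airway secretory genes had a median of -0.12 over 17 genes and went both ways. The median was 0.28 without WT 2 and -0.26 without Het 1. Muc5ac, a gel-forming mucin, stood at 23.7, 16.7 and 7.44 CPM in WT and at 7.99, 4.06 and 8.94 in Het, a log2 difference of -1.19 (SE 0.46), and Muc5b, the other such mucin, at 93.2, 140.4 and 64.2 in WT and at 75.8, 24.3 and 37.2 in Het, a log2 difference of -1.12 (SE 0.45). In both, the groups overlapped. Scgb1a1, the club cell secretoglobin, had a difference of 0.43 (SE 0.43), with Het 1 highest at 30661 CPM and Het 3 lowest at 9446. Interferon-stimulated genes stood at -0.048 over 40 genes, and at 0.042 without WT 3. Of the T cell, B cell, erythroid and platelet lists none had a non-overlapping member, with medians of 0.19, 0.13, 0.21 and 0.067. Each of these medians turned negative with 1 library left out: -0.023 for T cells without WT 2, -0.076 for B cells without WT 1, and -0.037 and -0.095 for the erythroid and platelet lists without Het 1.

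Single genes of lowest p are given as values and not as calls. D430041D05Rik, a protein-coding gene (chr2:104143073-104411013, - strand), had the lowest p of all and lies outside the rule for named genes because its symbol is a clone name, so it was chosen after its values were seen. It stood at 9.43, 8.37 and 10.7 CPM in WT and at 2.33, 3.55 and 3.70 in Het. The 3 WT libraries lay close together and the 3 Het libraries all lay well below them. The log2 difference was -1.57 (SE 0.23), with an adjusted p of 1 by edgeR and an adjusted p of 1.59e-05 by DESeq2. Over the 18 alternatives it lay between -1.68 and -1.39, and edgeR's adjusted p was 0.348 without Het 3 and 0.1002 with the length slope of each library as a covariate.

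Among the 10 named genes of lowest p on the lower side, Pigr had the largest difference. Pigr, the receptor that carries IgA across epithelia, stood at 26.1, 20.1 and 16.4 CPM in WT and at 10.2, 4.81 and 10.4 in Het, a log2 difference of -1.31 (SE 0.32, adjusted p = 1 by edgeR). Kcna6, a voltage-gated potassium channel, stood at 8.26, 7.52 and 7.95 CPM in WT and at 5.73, 4.09 and 3.96 in Het, a log2 difference of -0.79 (SE 0.20). Both had Het libraries wholly below WT. Cdkn1a, the cyclin-dependent kinase inhibitor p21, stood at 67.7, 53.5 and 52.4 CPM in WT and at 43.2, 48.4 and 42.5 in Het, and Ackr3, a scavenging chemokine receptor, at 82.0, 57.3 and 58.9 and at 49.7, 48.6 and 45.7. In both of these WT 1 was the highest library. The others were Cables1, whose exons overlap those of Gm6277 and Mir1901, Pdhx, Npepps, P2ry1, Gpc6 and Lmod1, with log2 differences of -0.29 to -0.47.

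On the higher side, Ankrd63 had the lowest p. It encodes an ankyrin repeat protein and stood at 2.88, 3.56 and 2.67 CPM in WT and at 5.39, 4.93 and 5.34 in Het, a log2 difference of 0.78 (SE 0.20, adjusted p = 1 by edgeR). Slc28a2, a nucleoside transporter, stood at 2.05, 2.18 and 1.98 CPM in WT and at 3.86, 2.94 and 3.45 in Het. Tuba8, an alpha tubulin, stood at 9.28, 9.67 and 9.45 CPM in WT and at 13.6, 11.999 and 12.4 in Het, with a log2 difference of 0.42 (SE 0.13). Its WT libraries were almost equal and every Het library lay above them. Tfpi2, Tmem163 (overlapping Mgat5), Srsf5 and Mgea5 had log2 differences of 0.24 to 0.54, beside Ngp, S100a9 and S100a8 described above. Mgea5, the enzyme that removes O-GlcNAc from proteins, was the tightest, at 132 to 134 CPM in WT and 156 to 158 in Het. None of them passed adjustment over the 15933 genes tested.

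**Figure D4:**
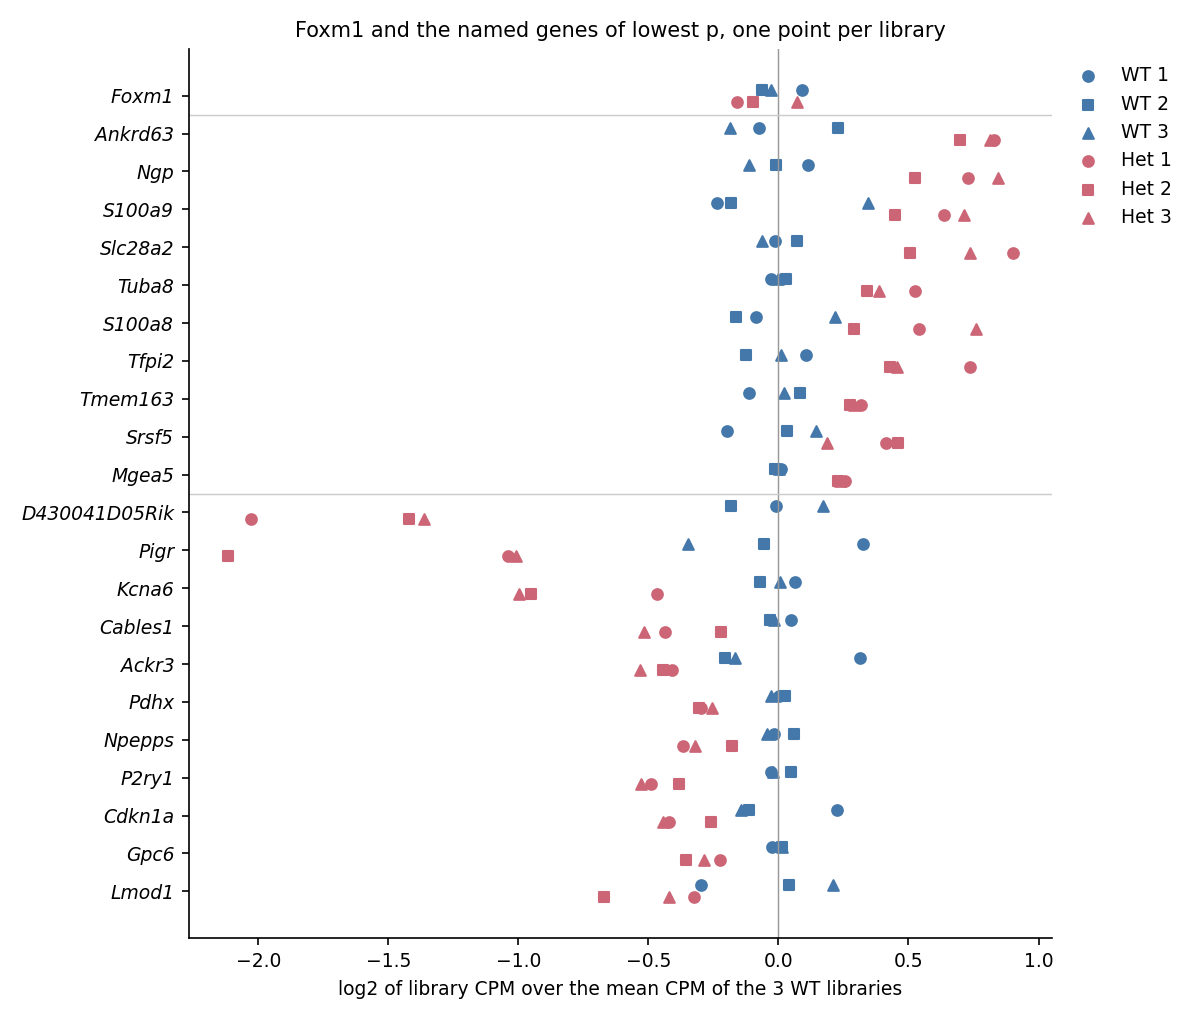
log2 of each library's CPM over the mean of the 3 WT libraries for Foxm1, the 10 named genes of lowest p above WT, D430041D05Rik and the 10 below WT (blue, WT; red, Het). Het and WT libraries overlap for Foxm1 and do not for the other 21 genes, and 0 of the genes passes edgeR's adjusted threshold.

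Genes next to Foxm1 went both ways, and none was called. With starts within 500 kb of its start, 13 other genes were tested, with a median log2 difference of 0.012, a range of -0.62 to 0.49, 7 above 0 and 6 below. Itfg2 was the only one whose groups did not overlap, at 23.4 to 24.7 CPM in WT and 24.9 to 26.6 in Het. In a window of 2500 kb, chosen after the values were seen, 48 other genes had a median of 0.018. Non-overlap occurred in 3 of them in the higher direction and 2 in the lower, beside 1.96% and 2.28% of all genes. The lower ones were Kcna6 and Parp11, the latter with a log2 difference of -0.30.

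**Figure D5:**
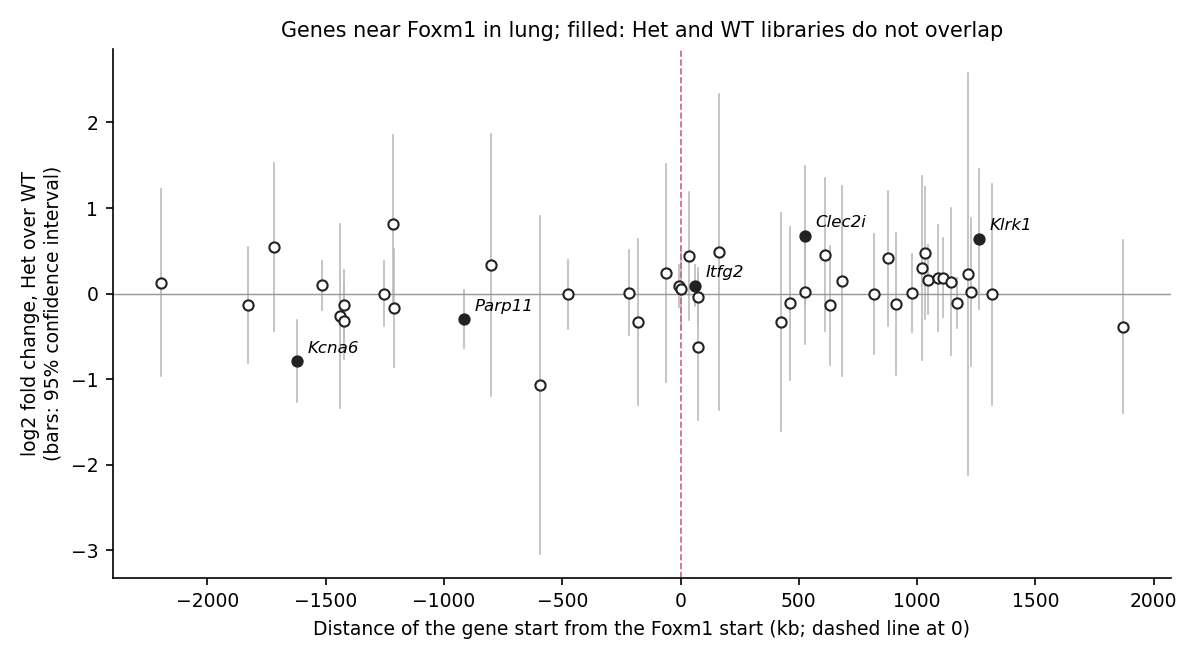
log2 difference of Het over WT in lung for the 48 other tested genes within 2500 kb of the Foxm1 start, by the distance of their own start, with bars for the 95% confidence interval. Filled points are the 5 genes whose groups do not overlap, with Kcna6 lowest among them.

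The Het effect in lung was set against that in Het fibroblasts of experiment 2, which share no library with it. In those early-passage C57BL/6 fibroblasts 2362 of 14314 genes passed edgeR's threshold (16.5%) with a coefficient of variation of 0.114, less than that of the lungs. A joint fit of the 12 libraries tested the difference between the effects and called 184 of 16364 genes (1.12%), 133 with lung higher and 51 with lung lower. With 1 of the 12 libraries left out these counts ran from 24 and 15, without lung WT 3, to 287 and 259, without lung Het 3, and with the replicate number as a block they were 27 and 12. None of the 44 G2/M genes was among them with edgeR or DESeq2, and 3 had an unadjusted p under 0.05 with edgeR, 2 with lung higher and 1 with lung lower. Their median log2 difference was -0.20 in lung and -0.32 in fibroblasts. Ect2 had a log2 difference of -0.45 in fibroblasts, from 80.0 ± 5.15 to 58.6 ± 2.95 CPM (SD, n = 3 each), with an adjusted p of 0.00274 by edgeR. The difference of its effects, lung less fibroblasts, was 0.17 with an adjusted p of 0.954, which does not show that the effects are alike.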

How the data were processed

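The deposited file, made by the authors, is a table of raw counts for 24062 gene symbols and 27 libraries, 3 in each of 9 groups. TruSeq libraries (v2 kit, which does not mark strand) were made from about 200 ng of RNA, per the labels' protocols. TopHat2 2.0.14, Bowtie2 2.2.6, featureCounts 1.4.6, Subread and the build mm10 are named, per the submitters' processing notes. The annotation and the strand setting are not given in the sources used here. Genes that share exons or near-identical copies are therefore uncertain.

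The 6 lung libraries were fitted alone in edgeR 4.0.16 (R 4.3.3): filterByExpr by group, TMM scaling, a robust quasi-likelihood test (two-sided), Benjamini-Hochberg adjustment and a threshold of 0.05, with 4 residual degrees of freedom. DESeq2 1.42.0, limma 3.58.1 voom with sample weights, other scalings and filters, all 27 libraries together and leaving out each library were alternatives. Distances and components used log2 CPM with a prior count of 2. The scripts were tested on simulated data. The labels do not say what a replicate number shares, so the numbers were used as a block only in an alternative. Deviations of same-numbered WT and Het libraries correlated at -0.338, 0.120 and -0.300, which does not show whether they were paired.

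Positions and exonic lengths are from GENCODE M21 (GRCm38), and 23656 symbols matched. Named genes were Foxm1 and the genes of the title, the 10 of lowest p in each direction whose average log2 CPM was 1 or more and whose symbol is no clone name, up to 4 members of each of 51 lists by p, and the genes of largest spread of average log2 CPM 3 or more. The mitochondrially encoded genes were not analysed here. The lists and the comparison were chosen with earlier results of these data known.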

Additional observations from a re-analysis of the deposited data

Results flagged for a closer look

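The effect of the Het genotype in lung was tested against that in fibroblasts of experiment 2, and the difference passed edgeR's adjusted threshold for 133 genes where lung lay higher and for 51 where it lay lower, of 16364 tested. The test was the interaction of tissue and genotype in 12 libraries. Tissue, age and culture cannot be told apart in this difference. Lung and fibroblast libraries also differed in spread.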

How the results depend on the processing

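The 15 alternatives of the design and the 3 chosen after seeing the data all left 0 genes called higher in Het lungs. None were called lower except 1 by DESeq2 (D430041D05Rik) and 1 with the length slope as a covariate (Gm8615, log2 -5.83, adjusted p = 0.0128), a gene at 0 to 3.41 CPM whose groups overlap. Leaving out each library gave 0 to 0 calls in either direction. At an unadjusted p under 0.05 there were 114 genes as reported, 2055 (12.9%) without Het 3 (smallest adjusted p 0.348), 1793 (11.3%) with neither WT 1 nor Het 3, 1503 by limma voom, 573 in the fit of 27 libraries, 531 with the length slope and 188 without WT 1. With the replicate number as a block there were 33, and 0 genes were called. WT 1 correlated best with Het 3 (0.364), a library of another number, which does not show whether the samples were paired.

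For the difference between lung and fibroblasts, DESeq2 called 505 genes higher and 208 lower, and the replicate block 27 and 12. Leaving out 1 library gave 24 to 287 higher (24 without lung WT 3, 287 without lung Het 3) and 15 to 259 lower, again without those same libraries. The causes were not tested.

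Among the genes of the title, Rhoa changed sign, from -0.061 to 0.022 without WT 1 and 0.051 without Het 1, with a range of -0.20 to 0.051 over left-out libraries. Diap1 went from 0.021 to -0.28 by limma voom, -0.13 with the replicate block, -0.41 with neither WT 1 nor Het 3, -0.28 with the Y-linked covariate and -0.062 with the length covariate, and from -0.54 to 0.34 over left-out libraries (-0.043 without WT 2, -0.029 without WT 3, -0.54 without Het 3). The cause was not tested. Of 900 list medians under alternatives, 881 moved by less than 1 SD between libraries and 19 by more. This SD was each list's own within groups, so large moves of lists with a wide spread count as small. The squamous list had an SD of 2.36, and its median of -1.17 became 0.43 without WT 2, which is less than 1 SD. The part of depth in these results was not tested.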

Other observations

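Kcna6, which encodes a voltage-gated potassium channel and starts 1622 kb from the Foxm1 start on the same chromosome (chr6:126708329-126740674, - strand), was examined in the fibroblasts after its lung values were seen. In lung it stood at 8.26, 7.52 and 7.95 CPM in WT and at 5.73, 4.09 and 3.96 in Het. In fibroblasts of experiment 1 it stood at 3.90, 4.02 and 4.43 CPM in WT and at 1.68, 2.08 and 1.82 in the libraries labelled KO, a log2 difference of -1.14 with an adjusted p of 0.0886 by edgeR. In experiment 2 it stood at 3.95, 3.31 and 3.98 CPM in WT and at 2.93, 2.13 and 2.76 in Het, a log2 difference of -0.52 with an adjusted p of 0.0953. The altered libraries lay below WT without overlap in all 3 comparisons, which share no library, and in none of them did the gene pass the threshold. The gene was picked from 15933 for its lung values, so the lung value is a description.

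Het 1 was highest in single muscle genes, picked for this after their values were seen: Myh2 was at 33.7 CPM, Pvalb, the calcium buffer parvalbumin, at 9.49 against 0.0244 to 0.900, and Myl2, a ventricular and slow muscle light chain, at 6.66 against 0 to 0.930. The fast myosin Myh4 was not highest there, with 11.5 CPM against 17.2 in WT 2 and 13.05 in WT 3, nor was the creatine kinase gene Ckm, with 25.8 against 66.0 and 49.6. Het 3 was highest in Cbl, a ubiquitin ligase, at 40.7 CPM against 2.53 to 11.2, and in Hipk2, a nuclear kinase, at 52.6 against 4.99 to 12.3. Lars2, the mitochondrial leucyl-tRNA synthetase gene, was high in the same 3 libraries as Rn45s (WT 1, WT 2 and Het 2). Lars2 stood at 8183, 8991 and 1464 CPM in WT and at 2053, 5179 and 1739 in Het. Rn45s stood at 49808, 51492 and 8902 CPM in WT and at 9417, 28906 and 8724 in Het. Whether the Lars2 counts came from synthetase RNA was not tested.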
